A study of Mus musculus with 22 samples.

Results

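The comparison is that of Aire knockout (KO) with wild type (WT) mouse thymus, in its medullary epithelial cells (MECs), after treatment with Etopo. It used the 2 arrays titled Aire KO Etopo and the 3 titled WT Etopo, chosen by title, which are 5 of the 22 arrays of the series, and covered the 19752 genes with a single symbol. Etopo is a common abbreviation of etoposide, an inhibitor of type II topoisomerases. The labels do not spell it out, and dose and duration were not used here. The other arrays are WT and KO MECs given the vehicle DMSO, Topo (commonly topotecan, an inhibitor of topoisomerase I) or both drugs (EtopoTopo).

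All mice were on the C57Bl/6 background, Aire+/+ or Aire-/-. By label, the Etopo, DMSO and Topo arrays came from mice of 6 weeks, except that WT Etopo 3 and WT DMSO 3 had an age of 4 weeks. All EtopoTopo arrays, of both genotypes, came from mice of 4 weeks. The cells had been sorted as live and CD45-negative, with MHC class II high and Ly51 low. WT Etopo 2 carries a male label, but its level of Xist, the RNA that coats the silenced X of females, was 11.92, within the 11.87 to 12.33 of the other 4 arrays. The labels do not state how many mice went into an array. The p-values therefore rest on the variation among arrays, part of which may be technical.

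Aire is a transcriptional regulator of MECs. It brings about expression of many genes that are otherwise confined to single peripheral tissues, such as hormones, milk proteins and digestive enzymes, and developing T cells that recognise these antigens are removed or diverted. Type II topoisomerases cut both DNA strands to relieve twist and separate chromosomes, etoposide traps them on the cut DNA, and topoisomerase II is among the proteins known to bind Aire.

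Values are log2 of the deposited intensities, changes are KO minus WT with the standard error (SE) of the limma fit, and a gene was called at an adjusted p under 0.05 over all 19752 genes. Because each probe has its own response, levels are compared between arrays and not between genes. Median intensity on the 5 arrays was 244.48 to 257.38. The correlation across genes was 0.990 to 0.992 among the 3 WT arrays, 0.997 between the 2 KO arrays and 0.962 to 0.967 between genotypes. Aire itself had 12.30, 12.22 and 12.04 on the WT arrays and 12.94 and 12.83 on the KO arrays (0.70 ± 0.28, limma adjusted p = 0.114). As the signal of this probe covers the transcript as a whole, it is no check of the deletion. Of the defining markers, the epithelial adhesion molecule Epcam (10.65 to 10.91 in WT and 10.71 on both KO arrays) and the MHC class II chain H2-Aa (13.43 to 13.55 in WT and 13.58 on both KO arrays) were not called. Enpep, the gene of the sort marker Ly51, had 8.52, 8.30 and 8.04 in WT and 7.32 and 7.14 in KO (-1.06 ± 0.18, limma adjusted p = 0.000322). Enpep was lower in KO although both genotypes were sorted as Ly51 low, and its part in the results was not tested. On a list of 13 cortical thymic epithelium genes that holds Enpep, 3 fell (23.1%) and 4 rose (30.8%), with a median of 0.07. Over all genes 8.07% fell and 4.5% rose.

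Under Etopo, MECs without Aire had lower levels of many transcripts of glands, gut, pancreas, liver, tooth and skin, and higher levels of a smaller set of other genes. Of all genes, 1593 were lower in the KO (8.07%) and 889 were higher (4.5%). At least 2-fold changes were called lower for 555 genes (2.81%) and higher for 146 (0.739%), so 79.2% of the 2-fold calls were lower. The excess of falls grew with size, with 117 falls and 6 rises of at least 4-fold, 32 falls and 0 rises of at least 8-fold, and 9 falls of at least 16-fold. The arrays of the 2 genotypes did not overlap for 554 of the 555 genes and for 146 of the 146. Over all genes this held for 23.9% in the lower and 29.2% in the higher direction, so with 3 against 2 arrays it is common and adds nothing to the calls. The median change of all genes was 0.04. Falls made up 64.2% of all calls as deposited and 53.3% once every array was centred on its median. Without KO Etopo 1 the count of called genes was 1179 and without KO Etopo 2 it was 1280, against 2482 with all arrays. Without WT Etopo 2, 579 genes were higher.

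**Figure D1:**
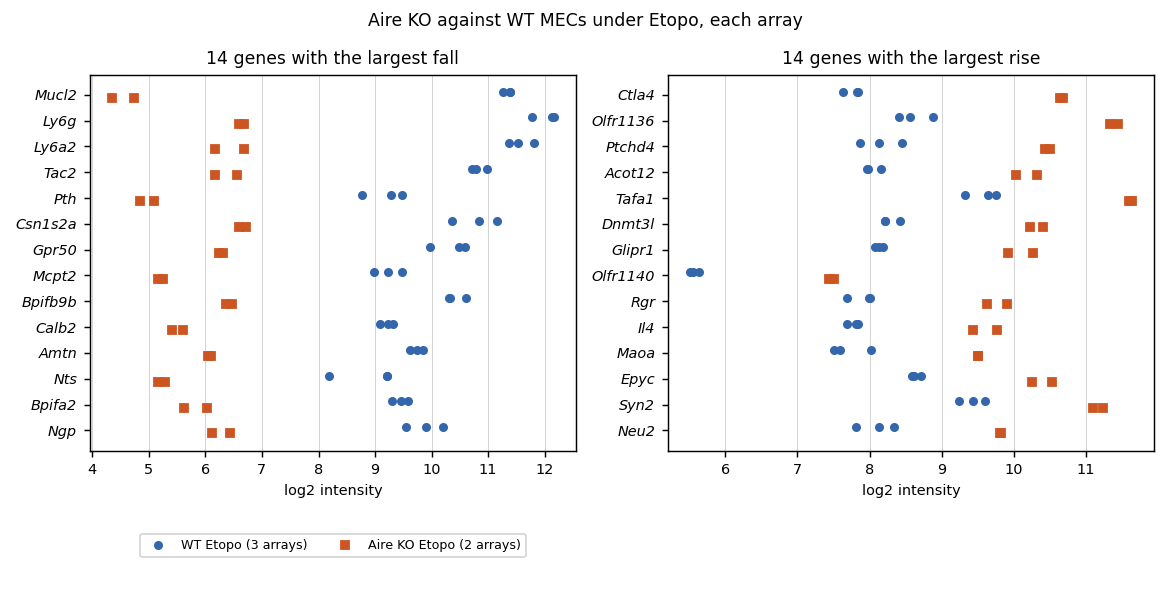
Log2 intensity (horizontal axis) of the 14 genes with the largest fall and the 14 with the largest rise, with 3 WT Etopo arrays as circles and 2 KO Etopo arrays as squares. For each of the 28 genes the genotypes do not overlap, a property the choice of genes required, and Mucl2 at the top falls from at least 11.26 to at most 4.74.

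The largest fall was that of Mucl2, whose mucin-like product is made by secretory glands. It had 11.38, 11.39 and 11.26 on the WT arrays and 4.34 and 4.74 on the KO arrays, a fall of 6.80 ± 0.22 (limma adjusted p = 1.15e-14). Ly6g, a surface antigen best known from neutrophils, had 12.13, 12.16 and 11.78 in WT and 6.68 and 6.59 in KO (-5.39 ± 0.19, adjusted p = 1.34e-14). Ly6a2, of the same Ly6 family, had 11.53, 11.81 and 11.36 against 6.69 and 6.18 (-5.13 ± 0.27, adjusted p = 2.81e-11). In all 3 genes the 2 KO arrays lay far below every WT array. Tac2, the precursor of neurokinin B, fell from 10.72, 10.79 and 10.98 to 6.55 and 6.18. Pth, the parathyroid hormone gene, fell from 9.29, 9.47 and 8.78 to 4.84 and 5.10. The files used carry no detection call. On these 5 arrays, where Xist was high, the probes of Uty, Kdm5d and Eif2s3y on the Y chromosome read 3.78 to 5.45, and the KO levels of Mucl2, Pth, Nts and Mcpt2 lie in that range, so their falls may be lower bounds. Also among the 14 were the melatonin receptor relative Gpr50 (-4.07 ± 0.19), the calcium-binding protein Calb2 (-3.70 ± 0.26), Bpifb9b (-4.00 ± 0.23) and Ngp, a neutrophil granule protein (-3.62 ± 0.25).

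The largest rise was that of Ctla4, an inhibitory receptor of T cells, with 7.84, 7.83 and 7.63 in WT and 10.68 and 10.63 in KO (2.89 ± 0.19 or 7.42-fold, limma adjusted p = 6.05e-10). The olfactory receptor Olfr1136 had 8.56, 8.87 and 8.41 against 11.45 and 11.34 (2.78 ± 0.33). Ptchd4 (2.31 ± 0.21), the acyl-CoA thioesterase Acot12 (2.15 ± 0.19), Tafa1 (2.04 ± 0.21) and Dnmt3l, a cofactor of DNA methyltransferases in germ cells (2.03 ± 0.21), followed. Of 15 genes on a list named for T cell genes seen in Aire-deficient MECs and cytokines, 6 rose and 1 fell, with a median of 0.43. Over all genes 4.5% rose and 8.07% fell. The list also holds other genes, such as Dnmt3l and Maoa. It was drawn up with earlier results of these data known, so its rises are no independent support. Il4, the helper T cell cytokine, had 7.81, 7.84 and 7.69 in WT and 9.43 and 9.77 in KO (1.82 ± 0.20). Monoamine oxidase Maoa (1.79 ± 0.21) and the cannabinoid receptor Cnr2 (1.56 ± 0.31) rose as well. The cytokine Il5 went the other way, from 9.18, 8.96 and 8.77 to 7.59 and 7.56 (-1.39 ± 0.16, chosen after its values were seen). Of 16 thymocyte genes 0 were called in either direction by limma, and Cd3e was at 7.78, 8.07 and 7.84 in WT and 7.72 and 7.76 in KO.

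The sequence just before the start site is shown for the first 4 genes of the falls and the first 2 of the rises that have a single start in the RefSeq promoter table (build GRCm38.p6), since these genes carry the extremes of the comparison. Each run is the 150 bases upstream of the start, 5′ to 3′ on the gene's strand, and capitals mark CG dinucleotides. The windows are chr15:103899313-103899462 (minus strand) for Mucl2, chr15:75135129-75135278 (minus) for Ly6a2, chr10:127724328-127724477 (plus) for Tac2, chr7:113388574-113388723 (minus) for Pth, chr1:60908875-60909024 (plus) for Ctla4 and chr2:87693948-87694097 (minus) for Olfr1136.
Mucl2: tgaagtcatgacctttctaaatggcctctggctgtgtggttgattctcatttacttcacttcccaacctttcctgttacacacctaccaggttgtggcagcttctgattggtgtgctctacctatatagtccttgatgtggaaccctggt
Ly6a2: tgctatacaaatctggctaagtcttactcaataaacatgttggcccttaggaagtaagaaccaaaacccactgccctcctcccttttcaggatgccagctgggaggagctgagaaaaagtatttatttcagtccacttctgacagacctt
Tac2: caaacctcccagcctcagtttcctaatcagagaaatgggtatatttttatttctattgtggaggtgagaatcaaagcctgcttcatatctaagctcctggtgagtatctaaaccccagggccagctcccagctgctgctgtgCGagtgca
Pth: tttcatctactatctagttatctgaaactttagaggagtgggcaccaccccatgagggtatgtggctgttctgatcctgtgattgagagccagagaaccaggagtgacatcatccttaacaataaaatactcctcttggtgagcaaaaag
Ctla4: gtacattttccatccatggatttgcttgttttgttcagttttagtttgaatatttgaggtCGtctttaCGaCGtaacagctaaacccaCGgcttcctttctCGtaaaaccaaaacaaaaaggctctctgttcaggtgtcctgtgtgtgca
Olfr1136: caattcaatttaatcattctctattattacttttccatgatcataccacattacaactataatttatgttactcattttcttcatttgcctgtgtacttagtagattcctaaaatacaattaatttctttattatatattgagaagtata
Of the 4 genes that fell, 3 have 0 CG and Tac2 has 1, while Ctla4 has 5 and Olfr1136 has 0. Among the 32851 promoters of the table, 14.3% hold no CG in this window and 29.3% hold 1 or fewer, with a median of 4. The hexamer TATAAA was in none of the 6 windows on either strand, and 7.57% of all promoters hold it. These are descriptions of 6 sequences. Only 423 of the 555 genes lower at least 2-fold (76.2%) are in the table, under the 80% needed, so a check over the set is void.

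The losses were sorted by the tissue in which each gene is normally used, with 40 gene lists of which 788 of 865 distinct members were measured. The share of all genes called lower, 8.07%, is the level against which the counts are read. All 40 lists were drawn up with earlier results of these data known. A share above that level is therefore a description and no independent support.

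**Figure D2:**
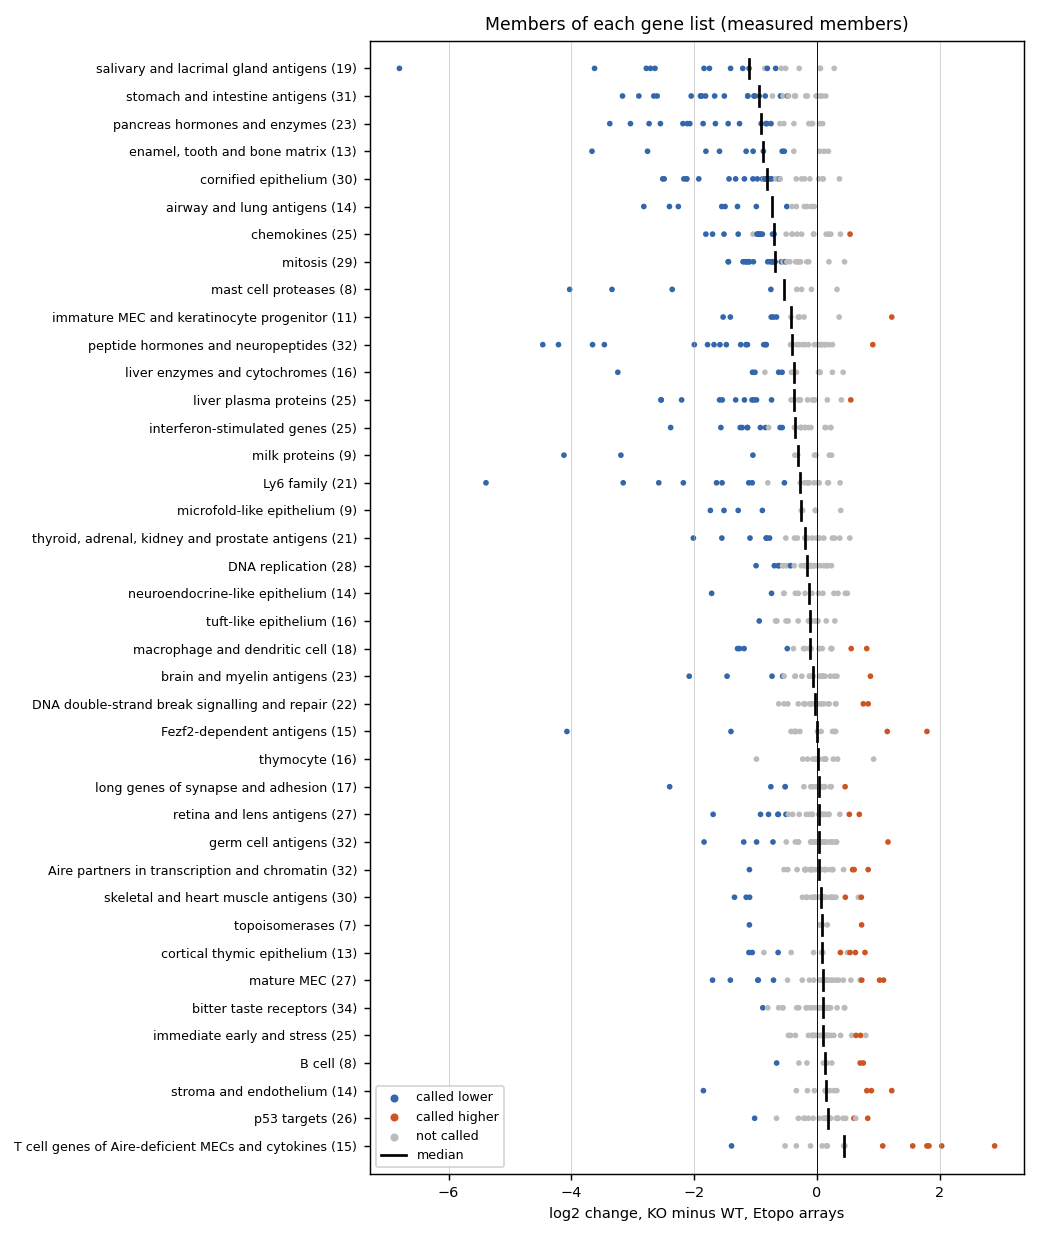
Log2 change (KO minus WT, Etopo arrays) of each measured member of 40 gene lists, 1 point per gene, with the number of members in parentheses, blue for genes called lower, orange for called higher, grey for not called and a black bar for the median. Lists of glands, gut, pancreas and tooth have medians between -1.11 and -0.87 at the top, and the retina, muscle, germ cell and thymocyte lists centre within 0.07 of 0.

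Lists of secretory and digestive tissues had the lowest medians. Of 19 salivary and lacrimal gland genes 12 fell and 0 rose (median -1.11), of 31 stomach and intestine genes 19 and 0 (-0.94), and of 23 pancreas genes 15 and 0 (-0.91). Besides Mucl2, the salivary protein Bpifa2 fell by 3.62 ± 0.24, and the demilune cell and parotid protein Dcpp3 by 2.78 ± 0.25. The pepsinogen gene Pgc was at 9.86, 9.70 and 10.32 in WT and 7.03 and 6.55 in KO, and the mucosal repair peptide Tff3 at 11.40, 11.50 and 11.49 against 8.51 and 8.61. Pancreatic polypeptide, Ppy, had 11.40, 11.46 and 11.16 against 7.98 and 7.95 (-3.38 ± 0.19, limma adjusted p = 8.74e-11). Chymotrypsinogen Ctrb1 (-3.04 ± 0.27), the islet peptide Iapp (-2.74 ± 0.38) and somatostatin, Sst (-2.55 ± 0.24), fell too, while the carboxypeptidase Cpa1 (0.04 ± 0.16) and the elastase Cela1 (0.09 ± 0.18) were not called. Losses within a tissue were therefore uneven.

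The airway list showed 8 falls and 0 rises among 14 genes (median -0.74), led by the gel-forming mucin Muc5ac (-2.82 ± 0.16) and the club cell protein Scgb1a1 (-2.26 ± 0.37). Of 32 peptide hormones and neuropeptides 15 fell and 1 rose (median -0.41). Galanin, Gal, had 10.72, 10.81 and 10.90 in WT and 7.21 and 7.48 in KO, and neurotensin, Nts, had 9.22, 9.22 and 8.18 against 5.28 and 5.16. Of 25 liver plasma proteins 11 fell and 1 rose (median -0.38), including albumin, Alb (-2.54 ± 0.22), and fibrinogen gamma, Fgg (-2.54 ± 0.18), while the transport protein Ttr (-0.28 ± 0.26) was not called. Of 16 liver enzymes 5 fell and 0 rose, with the cytochrome Cyp1a2 at -3.24 ± 0.20.

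Structural and contractile tissues split. Of 13 enamel, tooth and bone genes 9 fell and 0 rose (median -0.87), among them the enamel proteins Amtn (-3.67 ± 0.26) and Amelx (-2.76 ± 0.25). Of 30 genes of cornified epithelium 18 fell and 0 rose (median -0.82), including the kallikrein protease Klk13 (-2.51 ± 0.28) and the suprabasal keratin Krt1, at 10.29, 9.88 and 9.77 in WT and 7.33 and 7.65 in KO. Other lists had medians near 0. Of 30 skeletal and heart muscle genes 3 fell (10%) and 2 rose (median 0.07), and of 32 germ cell genes 4 fell (12.5%) and 1 rose (0.03). Of 27 retina and lens genes 6 fell (22.2%) and 2 rose (0.03), and of 23 brain and myelin genes 4 fell (17.4%) and 1 rose (-0.06). Single members still moved, such as the acetylcholine receptor subunit Chrna1 (-1.35 ± 0.20), the egg coat protein Zp3 (-1.84 ± 0.22), the lens crystallin Cryaa (-1.69 ± 0.25) and neurofilament light chain, Nefl (-2.08 ± 0.21). Another egg coat gene, Zp2, rose by 1.15 ± 0.15.

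Of 8 mast cell protease genes 4 fell and 0 rose. Mcpt2 was at 9.48, 9.23 and 8.98 in WT and 5.25 and 5.15 in KO, and Mcpt1 at 8.53, 7.81 and 8.52 against 4.93 and 4.96, while the mast cell carboxypeptidase Cpa3 (0.32 ± 0.46) was not called. Of 21 Ly6 family genes 9 fell and 0 rose. Of 15 genes listed as antigens dependent on Fezf2, another regulator of MECs, 2 fell and 2 rose (median 0.00), with Gpr50 lower, Maoa and the hormone Fgf21 higher (1.14 ± 0.23) and Fezf2 itself at 0.07 ± 0.13.

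Many genes that fell were neighbours in the genome. In RefSeq gene order, 142 of the 555 genes lower at least 2-fold (25.6%) adjoined another such gene, while 5.33% of all 19677 placed genes did. For the genes higher at least 2-fold, 19 of 146 (13%) adjoined another, against 1.46% of all placed genes. Runs of 3 or more neighbours, named here after their values were seen, held the trefoil factors Tff3, Tff2 and Tff1, the gel-forming mucins Muc2, Muc5ac and Muc5b, the mast cell proteases Mcpt1, Mcpt2 and Mcpt4, the carbonic anhydrases Car13, Car1, Car3 and Car2, and the kallikreins Klk7, Klk6, Klk5 and Klk4. Near-identical copies, such as Dcpp1, Dcpp2 and Dcpp3 or the Klk1b genes, may share signal on their probes, so they are not independent members of a run.

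On chromosome 5 a stretch of 17 genes runs from the caseins to enamelin. In it 8 genes fell, 7 of them at least 2-fold, 0 rose and 9 were not called (-0.85 to 0.32). Of those not called, Csn1s2b, Cabs1, Smr3a and Smr2 had WT means of 5.79, 5.74, 5.74 and 5.91. These lie little above the levels of the Y-linked probes, so a fall there may be hidden. Smr2 had the change of -0.85 (limma adjusted p = 0.0517). Csn1s1 (9.24, 9.30 and 9.14 against 6.14 and 5.92) and Csn1s2a (10.84, 11.15 and 10.35 against 6.73 and 6.60), which code for milk caseins, flank Csn2, the beta casein gene, which was high on every array at 13.48, 13.25 and 13.31 in WT and 13.61 and 13.56 in KO (0.24 ± 0.12, limma adjusted p = 0.259). At the other end Prol1, Amtn, Ambn and Enam lie side by side and each fell.

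**Figure D3:**
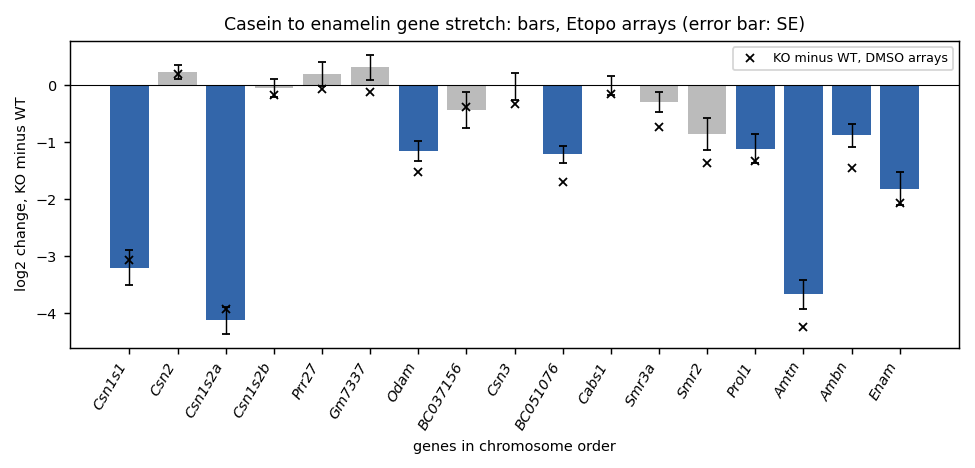
Log2 change (KO minus WT) of 17 genes in chromosome order from the caseins to enamelin, with bars for the Etopo arrays (error bar, SE, blue where called) and crosses for the DMSO arrays. Csn1s1, Csn1s2a and Amtn fall by more than 3 units, while Csn2 between the first pair was not called.

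The next question was whether Etopo altered what loss of Aire does. The DMSO arrays of the 2 genotypes, 3 each, were not used in the Etopo contrast, but share its fit. Under DMSO 12% of genes were called lower in the KO and 7.4% higher. Of the 1593 genes lower under Etopo, 1226 were also called lower under DMSO, which is 77% of the Etopo calls and 51.9% of the DMSO calls. Of the 889 higher under Etopo, 705 were shared (79.3% and 48.2%). No gene was called in opposite directions. Of 640 genes lower at least 2-fold in KO under DMSO, 594 (92.8%) were called lower under Etopo and 0 higher, and 640 of 640 had a change below 0, with a median of -1.21. The DMSO median of these genes, -1.45, chose the list and is no measure of a difference. Of 136 genes higher at least 2-fold under DMSO, 114 (83.8%) rose under Etopo and 0 fell. Across genes, which are not independent replicates, the 2 sets of changes had a Pearson correlation of 0.847.

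**Figure D4:**
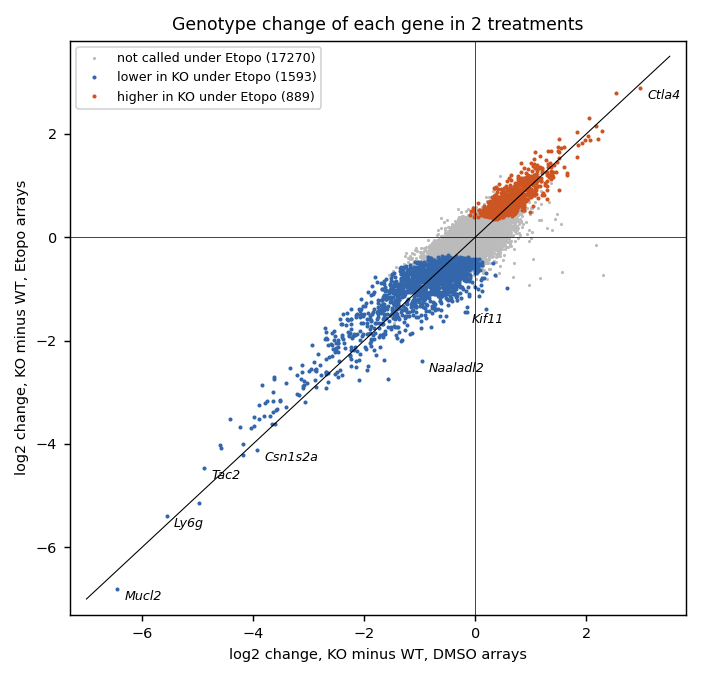
Log2 change (KO minus WT) of each gene on the DMSO arrays (horizontal) and the Etopo arrays (vertical), with the line of equal change, blue for the 1593 genes called lower under Etopo, orange for the 889 called higher and grey for the rest. Most coloured points follow the line, while Naaladl2 and Kif11 lie below it.

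Tested directly, the genotype effect under Etopo minus that under DMSO was called for 0 genes (0%) by limma, and 907 genes had an unadjusted p under 0.05 where 988 would be reached with no change. The median half-width of the 95% interval of a difference was 0.47 for a single gene, without adjustment. Passing adjustment over all genes takes a larger difference, so 0 calls do not exclude differences above 0.47. For Mucl2 the difference was -0.36 (-0.98 to 0.27), for Pth -0.02 (-0.80 to 0.75) and for Ctla4 -0.07 (-0.60 to 0.46). Against the Topo arrays, again 0 genes (0%) were called, with 535 at an unadjusted p under 0.05. Intervals of this width do not show that the treatments acted alike.

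The gene with the lowest p in the difference from DMSO was Naaladl2, a very long gene of the glutamate carboxypeptidase family (singled out after its values were seen). It had 9.65, 9.74 and 10.01 on the WT Etopo arrays and 7.20 and 7.60 on the KO Etopo arrays (-2.40 ± 0.19, limma adjusted p = 7.93e-09). Under DMSO its change was -0.97, and the difference of -1.44 (-1.95 to -0.92) did not pass adjustment (adjusted p = 0.195). It passed without WT DMSO 3 (adjusted p = 0.0411) and with age as a covariate (0.0488), and the range over all settings reached 1. Its 2 probes gave Etopo changes of -2.40 and -1.28. Of 17 long genes of synapse and adhesion, a list that holds Naaladl2, 3 fell (17.6%) and 1 rose (5.88%), with a median of 0.02. Over all genes 8.07% fell and 4.5% rose, and the part of gene length was not tested.

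Genes of cell division were lower in KO than in WT under Etopo. Of 29 mitosis genes 17 fell (58.6%) and 0 rose, with a median of -0.68, and under DMSO 1 fell and 2 rose, with a median of -0.12. The mean log2 level of the list was 8.44, 8.54 and 8.45 on the WT Etopo arrays and 7.75 and 7.90 on the KO Etopo arrays. It was 8.49 to 8.65 in WT and 8.34 to 8.68 in KO under DMSO, so the 2 KO Etopo arrays lay below all 9 others of these 4 groups. They were not the lowest of the series, as the Topo and EtopoTopo arrays of both genotypes read 7.46 to 8.17. The median change in KO was -0.29 under Topo and -0.01 under EtopoTopo. Kif11, the motor that separates spindle poles, had 8.90, 9.23 and 9.32 in WT and 7.55 and 7.86 in KO (-1.45 ± 0.27, limma adjusted p = 0.000576). Cyclin A2, Ccna2, had 9.81, 10.46 and 10.22 against 8.59 and 8.85 (-1.44 ± 0.29). The proliferation marker Mki67 had 9.55, 9.56 and 9.84 against 8.38 and 8.62 (-1.15 ± 0.24). In these 3 genes both KO arrays lay below the WT arrays, as in 23.9% of all genes. Cyclin B2, Ccnb2 (-1.21 ± 0.24), and the checkpoint kinase Bub1 (-1.18 ± 0.22) fell as well, while the kinases Cdk1 (-0.31 ± 0.19) and Aurkb (-0.35 ± 0.18) were not called.

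In the difference of genotype effects, Etopo minus DMSO, 28 of 29 mitosis genes lay below 0, with a median of -0.59. Of these, 16 had an unadjusted p under 0.05 and a value below 0, as had 1.77% of all genes, and 0 passed adjustment over all genes by limma. Over all genes the median difference was 0.04, and other lists also leaned to 1 side. Values lay below 0 for 14 of 16 tuft-like genes (median -0.31) and 25 of 32 Aire partners (-0.13). They did so for only 5 of 25 liver plasma proteins (0.29), 0 of 13 enamel, tooth and bone genes (0.26) and 0 of 8 mast cell proteases (0.49). For Kif11 the difference was -1.26 ± 0.36 (limma adjusted p = 0.891). Without KO Etopo 1, Mki67 and Ccnb2 were no longer called lower in the Etopo contrast (limma adjusted p = 0.0616 and 0.0667). Leaving out KO Etopo 1 took the count of mitosis genes called lower from 17 to 6, and that of unadjusted differences from 16 to 10. Transcripts of thymocytes, many of which divide, were high on WT DMSO 1 and KO DMSO 1 (list means 8.12 and 8.55) and at 7.07 to 7.20 on the 5 Etopo arrays. Without both DMSO arrays the counts were 17 and 15.

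Of 28 DNA replication genes 5 fell and 0 rose (median -0.16). They included the ribonucleotide reductase subunit Rrm2 (8.85, 8.88 and 9.05 against 7.82 and 8.05) and thymidylate synthase, Tyms (-0.70 ± 0.19), while the replication clamp Pcna (0.11 ± 0.16) was not called. Without KO Etopo 1 neither Rrm2 nor Tyms was called. The difference from DMSO was below 0 for 25 of the 28, with a median of -0.39, and 10 had an unadjusted p under 0.05 and a value below 0.

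**Figure D5:**
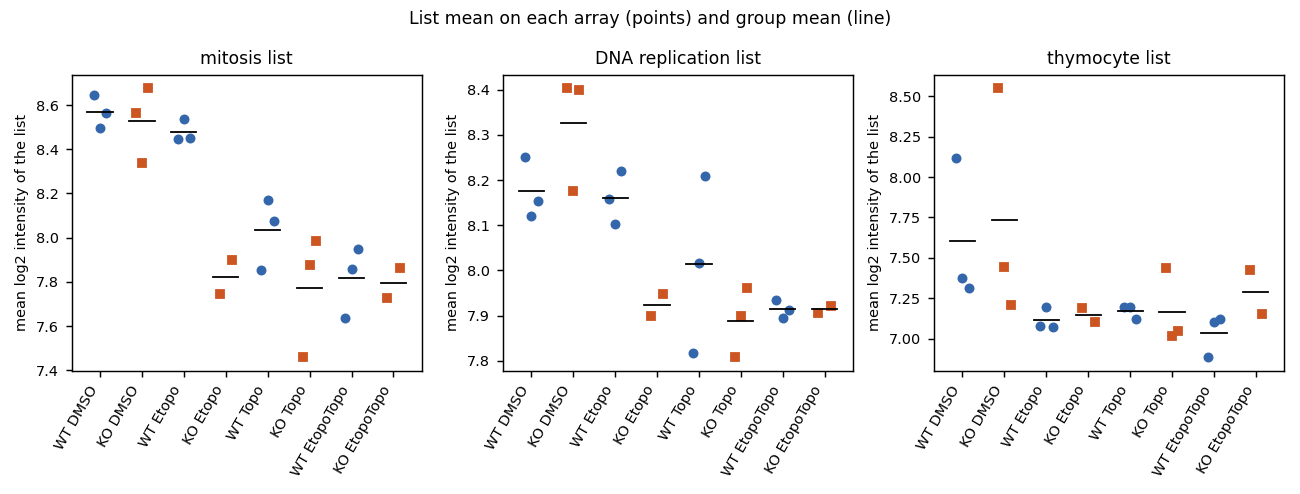
Mean log2 intensity of the mitosis, DNA replication and thymocyte lists on each of the 22 arrays, with WT as blue circles, KO as orange squares and the group mean as a line. On the mitosis list the KO Etopo arrays, at 7.75 and 7.90, lie below WT Etopo (8.44 to 8.54) and both DMSO groups. The Topo and EtopoTopo arrays of both genotypes, at 7.46 to 8.17, span the KO Etopo levels. On the thymocyte list the 2 Etopo groups overlap.

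Among the targets of the drugs, only Top2a of the 3 below was called. Top2a, the topoisomerase II of dividing cells, had 9.31, 9.29 and 9.08 in WT and 7.92 and 8.32 in KO (-1.10 ± 0.30, limma adjusted p = 0.0164). It is also a mitosis gene, and without KO Etopo 1 or without WT Etopo 2 it was no longer called (adjusted p = 0.237 and 0.0505). Top2b, the other form of topoisomerase II, had 8.61, 8.38 and 8.64 against 8.52 and 8.66 (0.05 ± 0.22). Top1 had 9.31, 9.18 and 9.12 against 9.19 and 9.31 (0.05 ± 0.18). For Top2b and Top1 the genotypes overlapped. Of 32 partners of Aire in transcription and chromatin, 1 fell (3.12%), which is Top2a, and 3 rose (9.38%), against 8.07% and 4.5% of all genes. The 3 were the deacetylase Sirt1 (0.60 ± 0.14), the acetyltransferase Crebbp (0.58 ± 0.16) and the DNA break sensor Rad50 (0.83 ± 0.14). Crebbp lost its call without WT Etopo 2 or either KO array, and Sirt1 without KO Etopo 2.

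Genes of the response to DNA breaks are read here against the 8.07% of all genes that fell and the 4.5% that rose. Of 26 p53 targets 1 fell (3.85%) and 2 rose (7.69%), with a median of 0.18. The called genes were the desmosome protein Perp at 11.33, 11.43 and 11.27 in WT and 10.18 and 10.47 in KO, which fell, and the receptor Eda2r (0.82 ± 0.21) and the stress protein Sesn1 (0.60 ± 0.18), which rose. Mdm2 (0.15 ± 0.24) was not called, and Eda2r and Sesn1 each lost their call without either KO array. Of 22 genes of double-strand break signalling and repair 0 fell and 2 rose (9.09%), and of 25 immediate early and stress genes 0 fell and 2 rose (8%).

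Genes of MEC subsets and of immune signalling are read against the same shares, 8.07% of all genes lower and 4.5% higher. Of 25 interferon-stimulated genes 10 fell and 0 rose (median -0.37). Ifit3, an antiviral effector, had 9.53, 8.94 and 9.72 in WT and 6.91 and 7.11 in KO (-2.38 ± 0.29), and Rsad2 fell by 1.57 ± 0.28. Of 25 chemokine genes 12 fell and 1 rose (median -0.70), among them Ccl28 (-1.81 ± 0.20) and Ccl22 (10.09, 9.80 and 10.34 against 8.52 and 8.22). Of 11 genes of immature MECs and keratinocyte progenitors 5 fell and 1 rose, with the basal keratin Krt5 at 12.01, 11.46 and 11.66 against 9.98 and 10.61. Of 9 microfold-like genes 4 fell and 0 rose, including the microbial uptake receptor Gp2 (-1.74 ± 0.26). Of 27 mature MEC genes 5 fell (18.5%) and 3 rose (11.1%). Among the 3 was Cd83, a surface protein of antigen-presenting cells, at 8.70, 8.61 and 8.71 against 9.81 and 9.69. Of 16 tuft-like genes 1 fell (6.25%), and of 34 bitter taste receptors 1 fell (2.94%), both below the share of all genes. Some lists of this paragraph share members that fell, so their counts are not independent. Ccl6 and Ccl9 are on the chemokine and microfold-like lists. Ccl22 is on the chemokine and mature MEC lists, and Krt5 on the immature and mature MEC lists.

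Markers of other cell types were called in both directions, although the CD45-negative gate would remove B cells, macrophages and dendritic cells. Ptprc, the gene of CD45 (named after its values were seen), was at 7.45, 7.27 and 7.30 in WT and 7.21 and 7.26 in KO and was not called. Under DMSO, Ptprc was at 8.98 on WT DMSO 1 and 10.04 on KO DMSO 1, above the 7.35 to 7.55 of the other 4 arrays. Of 8 B cell genes 1 fell and 2 rose, with list means of 7.92 to 7.98 in WT and 8.01 to 8.08 in KO, of 18 macrophage and dendritic cell genes 4 fell and 2 rose (7.86 to 8.02 in WT and 7.74 to 7.77 in KO), and of 14 stroma and endothelium genes 1 fell and 3 rose (8.21 to 8.27 in WT and 8.36 to 8.38 in KO). Over all genes 8.07% fell and 4.5% rose. The macrophage and dendritic cell genes that fell included Cd14 (-1.30 ± 0.19) and Adgre1 (-1.19 ± 0.22), and the 2 that rose were Cd68 (0.81) and Batf3 (0.56). On the stroma and endothelium list the gene that fell was Acta2 (-1.85), and the matrix proteoglycan Dcn rose by 1.22 ± 0.15. Array intensities have no true 0, and the part of these cells in the results was not tested. In sorted bulk samples, fewer cells of a type and less RNA per cell cannot be told apart.

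Set against the arrays given both drugs, the genotype effect was larger under Etopo alone for 17 genes (0.0861%), all with more loss in the KO under Etopo (limma, a comparison added after the data were seen). Pth changed by -4.21 under Etopo and by -1.30 under EtopoTopo (difference -2.91 ± 0.39, adjusted p = 0.00256), and Csn1s2a by -4.12 and -1.47 (-2.65 ± 0.33, adjusted p = 0.00135). Csn1s1 (-2.39), Amtn (-2.11), Mucl2 (-2.04), Cyp1a2 (-1.85) and Fgg (-1.33) were among the 17. By label the mice of the 5 EtopoTopo arrays were 4 weeks old, and 2 of the 3 WT ones carry a treatment label that names Etopo only. Without KO EtopoTopo 1, the array of narrowest range, 2 genes were called, and without both arrays of conflicting label 3. The count was 5 without WT Etopo 1, 9 without WT Etopo 2, 30 without WT Etopo 3, 4 without KO Etopo 1 and 3 without KO Etopo 2.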

How the data were processed

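RNA of sorted MECs was extracted with Trizol, amplified with a whole-transcript kit, biotin-labelled and hybridised to Affymetrix gene arrays, per the labels' protocols. The deposited values are linear probe intensities, and the submitters' processing notes name RMA and Affymetrix Power Tools without versions. The planned design assumed log2 values, so log2 of the intensity was taken with no pseudocount and no further normalization. Intensities carry no count depth, and precision is limited by how many arrays there are.

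Of 24922 probes, 21425 had 1 symbol, 1399 had several and 2098 had none in the platform annotation, and only the first were used. The RefSeq table (GRCm38.p6) held 21347 of their identifiers, and 0 symbols changed. The probe with the highest mean stood for a gene, which gave 19752 genes.

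Tests were made with limma 3.58.1 in R 4.3.3 (lmFit over the 22 arrays, each group having its own mean, then eBayes, 14 residual and 7.22 prior degrees of freedom) and adjusted by Benjamini-Hochberg over all genes, with calls at 0.05. The method was tested on simulated data. The 2 KO Etopo arrays had 5 probes of identical value and were kept as separate replicates. Genes were named by a rule: up to 14 falls and 14 rises with arrays that do not overlap, up to 8 called each way in the difference from DMSO, up to 5 members of each list and members not called that are set beside them, plus Aire, Top1, Top2a, Top2b and Xist, leaving out predicted, clone-named, ribosomal and small RNA genes. The comparison, members and gene lists were chosen with earlier results of these data known. Lists are described by counts and medians, with no set test. Figures were drawn with matplotlib 3.10.9 in Python 3.11.15.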

Additional observations from a re-analysis of the deposited data

Results flagged for a closer look

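The difference of the genotype effect between the Etopo arrays and the arrays given both drugs passed the limma threshold for 17 genes, which flagged them. Its value was -2.91 for Pth, -2.65 for Csn1s2a, -2.39 for Csn1s1, -2.11 for Amtn, -2.04 for Mucl2, -1.85 for Cyp1a2 and -1.33 for Fgg, each with a larger loss in the KO under Etopo alone. The groups also differ in age, 4 weeks for all EtopoTopo arrays and 6 weeks for 4 of the 5 Etopo arrays. Only the WT DMSO and WT Etopo groups held both ages. An age covariate therefore cannot separate age from the second drug here, and its count answers no question about age. With age as a covariate 35 genes were called, and without KO EtopoTopo 1 there were 2.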

How the results depend on the processing

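With 2 KO Etopo arrays, the count of called genes moved most with the arrays and samples fitted. With only the 5 Etopo arrays in the fit, 4142 genes were called, 1812 of them higher. The arrays left out singly were those of the Etopo and DMSO groups and KO EtopoTopo 1, which was not planned. No other array of the fit was left out alone. The highest counts of called, lower and higher genes of any size came without KO EtopoTopo 1. Leaving out 1 array at a time gave 1179 to 2905 calls (2482 with all), 852 to 1785 lower, 327 to 1120 higher (579 without WT Etopo 2), 516 to 574 lower and 123 to 183 higher at least 2-fold, 478 to 605 of the 640 genes lower at least 2-fold under DMSO, 6 to 18 mitosis genes lower and 10 to 18 in the unadjusted difference. The difference from DMSO stood at 0 or 1 gene, with 1 (Naaladl2) with age as a covariate or without WT DMSO 3. The difference from EtopoTopo was called for 2 to 30 genes without 1 array, 8 with quantile normalization, 11 with arrays centred on their median, 3 without both arrays of conflicting label and 35 with age as a covariate. Falls were 64.2% of calls, 58.7% with quantile normalization and 53.3% with centred arrays, and the median change of all genes was 0.04, 0.06 and 0.10.

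Replicate numbers did not pair the arrays (correlation of deviations -0.07 and -0.16), and a replicate block gave 2317 calls, 1510 lower and 807 higher, 0 in the difference from DMSO and 16 mitosis genes. Over all settings, 165 of the 209 named genes were followed, namely those called in the Etopo contrast and Aire. Among them 0 changes reversed, and a call was lost 144 times. A call was gained 2 times, both for Aire, the only gene followed that had no call to begin with. Gains of the other named genes were not tested, so the count of gains does not describe them.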
